A study of Rattus norvegicus with 99 samples.

Results

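Imprinted growth genes are read mainly from one parental copy, and 9 of them were followed in whole heart tissue of rats with and without pressure overload. H19, Igf2, Dlk1, Meg3, Mest, Peg3, Plagl1, Cdkn1c and Grb10 were taken by name from the deposited table of 17337 genes. All 9 were found, 8 by their symbol and Meg3 by its NCBI identifier, since its row carries the symbol RGD1566401. All 9 also passed the filter on low counts in every main fit, so none was lost before the main tests. Among alternative fits of AOB-F against sham in Spt, Meg3 had a value in 15 and Grb10 in 16. The counts do not separate the parental copies, so levels are reported and imprinting itself was not measured.

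The animals were 33 male F1 rats with a WKY mother and a Lewis father, and each gave 1 RNA-seq library from the left ventricle (LV), the septum (Spt) and the right ventricle (RV), 99 libraries in 21 groups. A clip around the pulmonary artery (PAB) loads the RV, and a clip around the aorta (AOB) loads the LV, as the animal outgrows a ring that does not constrict at surgery. Younger animals were 11 weeks old, operated on at 4 weeks and studied 7 weeks later, as Sham-H (7 animals), PAB-H (7) and AOB-H (7), where H stands for compensated hypertrophy. Older animals at the stage of heart failure (F) were operated on at 6 weeks. They comprised 3 PAB-F and 2 Sham-RF animals of 27 weeks, 21 weeks after surgery, and 4 AOB-F and 3 Sham-LF animals of 30 weeks, 24 weeks after surgery. Ages, sex and strain follow the labels. The study's text gives other ages, names the cross as Wistar with Lewis and describes banding in both sexes. Age, time after surgery and age at surgery therefore cannot be told apart in any comparison of older with younger animals.

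In embryo and fetus these genes set how fast tissue grows, and most fall to low levels after birth as growth slows. Genes read from the paternal copy, such as Igf2, Dlk1, Mest, Peg3 and Plagl1, tend to favour growth, and genes read from the maternal copy, such as H19, Meg3, Cdkn1c and Grb10, tend to restrain it. Igf2 is a growth factor that acts through the IGF1 and insulin receptors and is cleared by the Igf2 receptor, and H19 is a long noncoding RNA made next to it that carries the hairpin of miR-675. Dlk1, a membrane protein of the Notch ligand family, and the noncoding RNA Meg3 form a second such pair. Plagl1 and Peg3 are zinc finger proteins, Mest resembles a hydrolase, Cdkn1c (p57) inhibits cyclin-dependent kinases, and Grb10 is an adaptor that dampens insulin and IGF1 receptor signalling. In the heart Igf2 is known as a growth factor of the epicardium and endocardium of the embryo.

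By the RefSeq annotation of GRCr8, H19 and Igf2 are neighbours on chromosome 1, and Dlk1 and Meg3 lie near each other on chromosome 6. Peg3, which Apeg3 overlaps so that their reads may not be separable where strand was not used in counting, lies elsewhere on chromosome 1 with Plagl1 and Cdkn1c, Mest on chromosome 4 beside Copg2, and Grb10 on chromosome 14 between Ddc and Cobl. H19 and Igf2 each contain a microRNA precursor, whose mature sequences are shown because H19 and Igf2 were the members called between RV and LV in older shams. Capitals mark the seed, bases 2 to 8, and no seed is shared among the 4.
rno-miR-675-5p (chr1:207161800-207161821, minus strand): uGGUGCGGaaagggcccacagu
rno-miR-675-3p (chr1:207161766-207161786, minus strand): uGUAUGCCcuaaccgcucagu
rno-miR-483-5p (chr1:207247903-207247924, minus strand): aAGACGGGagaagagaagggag
rno-miR-483-3p (chr1:207247865-207247886, minus strand): cACUCCUCcccucccgucuugu
In the deposited table the row of Mir675 had no count in any library and that of Mir483 had 1 count in 1 library. No level of these microRNAs can be given from these libraries of polyadenylated RNA, and 0 counts in a library allow up to 3.

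Upstream sequences are shown for Igf2 and for Mest, Plagl1 and Peg3, the 3 genes called between older and younger animals once shams and banded animals were combined, a comparison chosen after seeing the data. Each is the 250 bases before a start site in RefSeq (GRCr8), written 5′ to 3′ on the strand of the gene. Promoter entries were found for 7 of the 9 genes, and H19 and Cdkn1c had none. Capitals mark matches on either strand to the letters searched. For the factor PLAGL1 these were GGGGCCCC. The repressor ZFP57, which protects imprints, was searched with TGCCGC. A GC box was searched with GGGCGG. For a TATA box the letters were TATAAA.
Igf2, first start site (chr1:207253981-207254230, minus strand): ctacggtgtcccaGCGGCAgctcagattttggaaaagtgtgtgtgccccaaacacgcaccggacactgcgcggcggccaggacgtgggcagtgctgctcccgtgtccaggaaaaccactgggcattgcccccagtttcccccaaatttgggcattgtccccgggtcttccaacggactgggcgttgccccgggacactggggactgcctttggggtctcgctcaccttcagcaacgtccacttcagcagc
Igf2, second start site (chr1:207250476-207250725, minus strand): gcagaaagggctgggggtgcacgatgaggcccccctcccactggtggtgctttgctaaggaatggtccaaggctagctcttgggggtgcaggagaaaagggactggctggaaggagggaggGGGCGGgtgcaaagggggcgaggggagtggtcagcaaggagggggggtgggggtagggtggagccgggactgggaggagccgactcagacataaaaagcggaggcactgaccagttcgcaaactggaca
Mest (chr4:60321564-60321813, plus strand): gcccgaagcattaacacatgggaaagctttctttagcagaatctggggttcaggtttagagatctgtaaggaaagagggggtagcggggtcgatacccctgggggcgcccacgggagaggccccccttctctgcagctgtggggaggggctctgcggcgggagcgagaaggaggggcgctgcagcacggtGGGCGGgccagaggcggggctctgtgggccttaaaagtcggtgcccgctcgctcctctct
Plagl1 (chr1:9297214-9297463, plus strand): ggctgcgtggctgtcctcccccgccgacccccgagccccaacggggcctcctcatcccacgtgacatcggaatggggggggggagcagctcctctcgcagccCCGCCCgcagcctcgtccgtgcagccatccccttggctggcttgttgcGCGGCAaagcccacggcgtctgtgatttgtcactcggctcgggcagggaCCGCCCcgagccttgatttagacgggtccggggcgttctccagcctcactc
Peg3 (chr1:76130744-76130993, plus strand): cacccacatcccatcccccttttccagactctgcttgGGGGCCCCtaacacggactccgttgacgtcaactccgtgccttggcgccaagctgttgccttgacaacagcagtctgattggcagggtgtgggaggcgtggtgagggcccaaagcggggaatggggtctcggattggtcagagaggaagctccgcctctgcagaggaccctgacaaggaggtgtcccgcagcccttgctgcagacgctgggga
GGGGCCCC was found in the window of Peg3 alone among the members with an entry, and 0.753% of the 33469 promoters of the table hold it. TGCCGC was found for Plagl1, Igf2, Dlk1 and Meg3, against 8.91% of all promoters, and GGGCGG for Plagl1, Igf2, Mest, Dlk1 and Grb10, against 30.5%. TATAAA was found only for Meg3, against 12.9%. These matches are letters in a window and carry no measurement of binding or of methylation.

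Compared per length, as median FPKM over the 99 libraries, the genes formed 3 tiers. Igf2 (16.9), H19 (14.2) and Grb10 (12.6) were highest, followed by Cdkn1c (7.11), Peg3 (6.49) and Mest (3.00). Dlk1 (0.245), Meg3 (0.239) and Plagl1 (0.182) were close to the limit of detection. Behind these levels stood medians of 1384 counts per library for Igf2, 1084 for Grb10, 963 for Peg3, 586 for H19, 270 for Cdkn1c and 69 for Mest. Plagl1 had a median of 15 counts, Meg3 of 8 and Dlk1 of 6, and Dlk1 had 3 counts or fewer in 27 of 99 libraries, so folds of these 3 genes rest on few reads. Levels below are CPM, a gene's counts relative to the library's total after TMM scaling, and the SD is over animals.

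Total counts ranged from 12057180 to 24197244 per library, with a median of 17391374. Whether LV and RV carried the right label was checked in each animal with 50 genes, none of them a member, chosen in the other animals for their difference between RV and LV. In 27 of 33 animals RV minus LV had the labelled direction (0.196 to 2.28). These values are ratios of the animal's median log2 difference to that of the other animals. The ratio was opposite at more than full size in Sham-H replicate 6 (-1.27), PAB-H replicate 2 (-1.21) and AOB-H replicate 1 (-1.20). It was slightly negative in PAB-H replicate 4 (-0.260), PAB-F replicate 2 (-0.163) and AOB-F replicate 4 (-0.0796). Labels were kept, values are those of the libraries labelled LV and RV, and several results on these chambers are also given without the first 3 animals. Below, these 3 are called the animals with opposite labels for short, and an exchange of their libraries was not established. The labels name no batch, but their library numbers fall into 3 runs, here called library series, and whether these mark separate preparations is not stated. In LV and RV all older animals belong to series 2 while the younger ones are spread over all 3. In Spt all older animals and 5 of each 7 younger ones belong to series 3.

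H19 and Igf2 were higher in RV than in LV. In LV, H19 stood at 33.1 and 49.5 CPM in the Sham-RF animals and at 24.9, 35.3 and 35.6 CPM in Sham-LF. In RV of the same animals it stood at 112 and 137 CPM and at 131, 106 and 75.0 CPM. Every RV value was above every LV value. The difference in older shams was 3.14-fold, a log2 fold change of 1.65 ± 0.43 (SE) with adjusted p 0.0149 (quasi-likelihood fit of edgeR, 11924 genes, adjusted by Benjamini-Hochberg). Igf2 had 66.5 and 87.5 CPM in LV of Sham-RF and 57.0, 73.4 and 61.3 CPM in LV of Sham-LF. In RV it had 155 and 155 CPM, and 133, 124 and 81.6 CPM. All 5 animals had more in RV than in LV, although the lowest RV value overlapped the LV range, and the log2 fold change was 0.92 ± 0.23 (adjusted p 0.0111).

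These were 2 of the 9 members, where 6.03% of all genes tested passed in this comparison. Plagl1 (1.18 ± 0.42, adjusted p 0.0661) and Mest (-0.86 ± 0.31, adjusted p 0.0701) did not pass. With the animal as a block, which the shared animals warrant, Plagl1 passed at an adjusted p of 0.0187. Without the 3 animals in the shared fit, none of which is an older sham, H19 (adjusted p 0.00205) and Igf2 passed and so did Plagl1 and Mest (adjusted p 0.0333 for Mest). Over all genes, the alternative fits called between 579 and 2090 in this comparison, beside 719 in the main fit. The 2 calls rested on few animals: with 1 of these 5 animals left out, neither gene passed without Sham-RF replicate 1, Sham-RF replicate 2 or Sham-LF replicate 1, H19 no longer passed without Sham-LF replicate 2, and both passed only without Sham-LF replicate 3.

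In Sham-H the difference had the same direction and passed only without the 3 animals with opposite labels. H19 ranged from 17.0 to 109 CPM in LV with a median of 30.0, and from 39.8 to 101 CPM in RV with a median of 68.2. The 109 CPM came from the LV library of Sham-H replicate 6, whose RV library held 39.8 CPM, the lowest of the 7. With all 7 animals H19 differed by 0.82 ± 0.35 (adjusted p 0.751) and Igf2 by 0.44 ± 0.19 (adjusted p 0.749), and 0 members and 0% of all genes passed, while H19 and Igf2 had an unadjusted p under 0.05 and DESeq2 also called 0 members. Leaving out replicate 6 alone also called 0 members. When all 3 animals were left out of the fit, H19 differed by 1.46 ± 0.33 and Igf2 by 0.78 ± 0.17 (adjusted p 0.0127 for each). Over all genes, the alternative fits called up to 149 in this comparison.

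**Figure D1:**
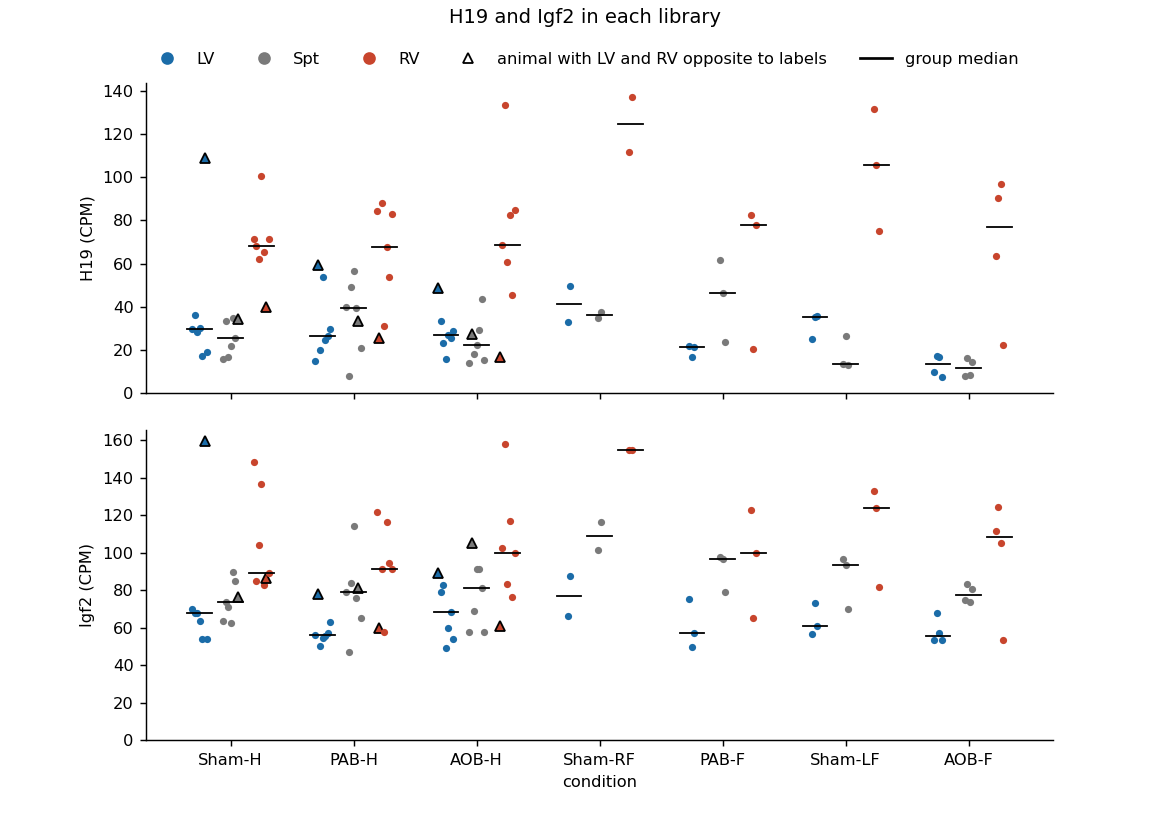
H19 (top) and Igf2 (bottom) in CPM on a linear axis for each library, by condition on the horizontal axis and with LV, Spt and RV side by side. Points are libraries, triangles the animals with opposite labels and lines the group medians, and the RV points of the older shams (75.0 to 137 CPM for H19) lie above those of their LV (24.9 to 49.5 CPM).

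Within animals, H19 was higher in RV than in LV in 29 of 33, with a median log2 difference of 1.55. The 3 animals with opposite labels all had more H19 in LV (-1.54 to -1.21 for RV minus LV), and the fourth exception was PAB-H replicate 4, one of those with a slightly negative check. Without the 3 animals the difference held in 29 of 30, and without all 6 in 27 of 27 with a median of 1.73. Igf2 was higher in RV in 30 of 33 animals (median 0.75), in 30 of 30 without the 3, and in none of those 3. In all 27 animals whose check had the labelled direction both genes were higher in the library labelled RV, and in the 3 with the opposite direction both were higher in the library labelled LV.

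The other members split. Plagl1 was higher in RV in 28 of 33 animals (median log2 difference 0.55), Meg3 in 25 (0.46), Peg3 in 25 (0.13) and Cdkn1c in 22 (0.22). Mest ran the other way and was higher in RV in only 6 of 33 animals (median -0.53), 3 of which were the 3 animals with opposite labels. Grb10 (13 of 33, -0.07) and Dlk1 (14 of 33, -0.19) were split between both directions.

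**Figure D2:**
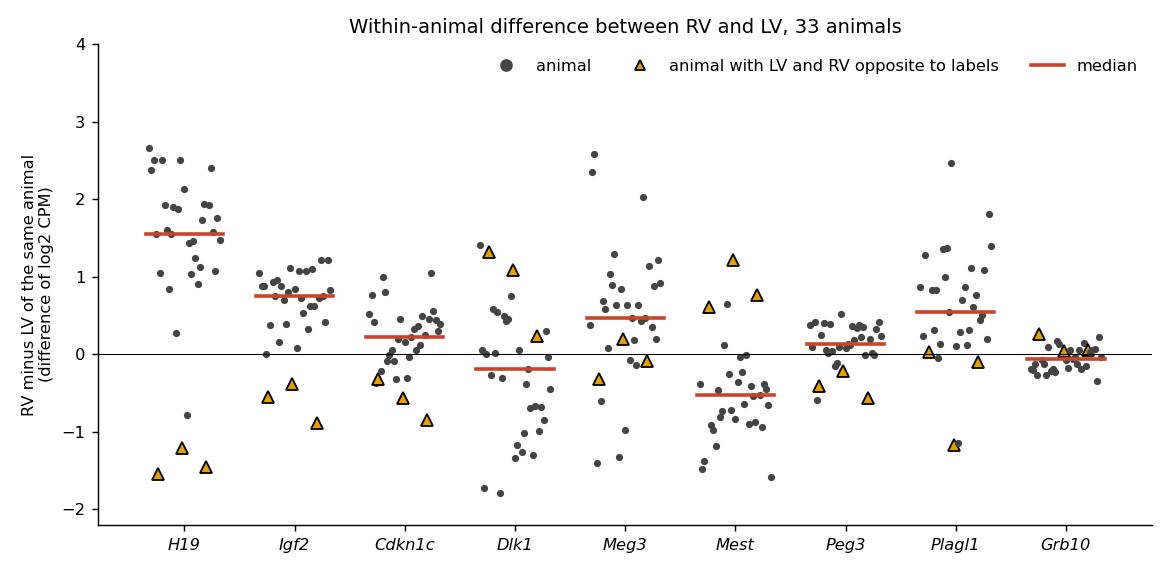
RV minus LV within each animal, as a log2 difference of CPM, for the 9 genes, with 1 point per animal, the median as a line and the 3 animals with opposite labels as triangles. H19 (median 1.55) and Igf2 (0.75) lie above 0 in nearly all animals and Mest (-0.53) below, and the triangles lie on the other side in these 3 genes.

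A comparison over all 7 conditions, chosen after seeing the data, used all 33 animals, and 28.4% of all genes passed between RV and LV. It called 5 of the 9 members, 4 higher in RV and Mest lower. H19 differed by 1.48 ± 0.19 (adjusted p 1.62e-08), Igf2 by 0.70 ± 0.10 (adjusted p 1.76e-07), Plagl1 by 0.74 ± 0.18 (adjusted p 0.000889), Meg3 by 0.65 ± 0.22 (adjusted p 0.0166) and Mest by -0.50 ± 0.13 (adjusted p 0.00201). Cdkn1c (0.26 ± 0.11, adjusted p 0.0662) and Peg3 (0.12 ± 0.06, adjusted p 0.102) passed with the animal as a block, at an adjusted p of 0.0317 and 0.0464.

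H19 in Spt was near its level in LV and far below RV. The median over 33 animals was 26.3 CPM in LV, 25.7 in Spt and 71.6 in RV. In Sham-H the Spt values ran from 15.7 to 34.9 CPM with a median of 25.7, all below the lowest RV value of 39.8 CPM, and Spt minus RV was -1.39 ± 0.35 (adjusted p 0.0304). In older shams Spt held 12.8 to 37.8 CPM against 75.0 to 137 in RV, a log2 fold change of -2.18 ± 0.44 (adjusted p 0.00201). H19 was the only member called in either comparison, in which 0.772% and 2.39% of all genes passed. The call in Sham-H was lost without any 1 of replicates 1, 2, 3, 4, 5 or 7, and that in older shams without either Sham-RF animal. Between Spt and LV 0 members passed in Sham-H (0.0923% of all genes) or in older shams (0.805%). There 1 and 3 members had an unadjusted p under 0.05, and DESeq2 also called 0.

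Igf2 was graded rather than split. Over all conditions its mean was 66.5 ± 20.0 CPM in LV, 81.5 ± 16.1 in Spt and 103 ± 29.2 in RV (SD, n = 33). In the comparison over all 7 conditions, Spt was above LV by 0.36 ± 0.10 (adjusted p 0.00803) and below RV by -0.34 ± 0.10 (adjusted p 0.00618). Peg3 (0.21 ± 0.06, adjusted p 0.00705) and Grb10 (0.15 ± 0.04, adjusted p 0.0121) were also higher in Spt than in LV, where 9.37% of all genes passed, and Dlk1 passed with the animal as a block (0.64 ± 0.23, adjusted p 0.0436). None of these passed with library series as a covariate, and most Spt libraries belong to another series than those of LV and RV. Against RV, 23.4% of all genes and 7 of the 9 members passed. H19 (-1.59 ± 0.19), Igf2, Cdkn1c (-0.41 ± 0.11) and Plagl1 (-0.54 ± 0.17) were lower in Spt, and Dlk1 (0.92 ± 0.24), Mest (0.53 ± 0.13) and Grb10 (0.19 ± 0.04) were higher.

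Other genes of the IGF system were compared in the same way. Of 17 tested, 4 were higher and 1 was lower in RV than in LV over all conditions, a share near the 28.4% of all genes, and their median log2 fold change was -0.07, beside -0.00 over all genes. Igf1, the main growth factor of postnatal life, had 46.4 CPM in RV and 37.5 in LV (0.39 ± 0.11, adjusted p 0.00381). Igf2bp2, which binds Igf2 mRNA, had 2.89 and 2.23 CPM (0.44 ± 0.10, adjusted p 0.000632), and Igfbp3, the main carrier of IGFs in blood, 88.5 and 71.7 CPM (0.33 ± 0.09, adjusted p 0.00604). Igfbp2, another carrier, also passed (adjusted p 0.00964) at the low mean levels of 0.835 and 0.549 CPM over all libraries. The fitted log2 fold change of 1.42 ± 0.44 weighs the 7 conditions equally and is larger than the ratio of these means. Neither receptor passed, with Igf1r differing by -0.09 ± 0.12 (adjusted p 0.606) and Igf2r by -0.06 ± 0.06 (adjusted p 0.452). Of genes of juvenile growth and proliferation, 1 of 15 was higher in RV (Ptn, pleiotrophin) and 6 were lower, among them Top2a, Mki67 and Cdk1 of dividing cells (named after their values were seen), beside 28.4% of all genes called, 1764 higher and 1620 lower of 11924.

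In bulk tissue, fewer cells of a type and less RNA per cell cannot be told apart. Markers of the outer lining of the heart differed along with H19 and Igf2. Of 5 mesothelial and epicardial genes in the table, on a list of 7, 4 were higher and 1 was lower in RV than in LV over all conditions. Their summed level had a median of 57.9 CPM in RV, 33.4 in LV and 29.1 in Spt. In older shams it was 26.9 to 74.1 CPM in RV and 26.1 to 35.6 CPM in LV. Across the 33 RV libraries it correlated with H19 at r = 0.49, and across the 33 LV libraries at r = -0.07. The cardiomyocyte sum correlated with H19 in all chambers, at r = 0.63 in LV, 0.49 in RV and 0.35 in Spt, and the Schwann cell and neural sum at 0.50 in RV, 0.28 in LV and 0.08 in Spt. Of these markers, Msln was at 0 in 2 libraries and Upk1b and Krt19 in 3 each, while Wt1 was above 0 in all. Endothelial markers (6 of 6 in the table) had summed medians of 1078 CPM in LV, 1130 in Spt and 1033.4 in RV, with 1 gene called higher and 4 lower in RV than in LV. Their sum correlated with Igf2 at r = 0.65 within RV, 0.56 within Spt and 0.14 within LV. Cardiomyocyte markers were higher in RV (63278 CPM) than in LV (53130 CPM), and atrial markers (5 of 5) reached 1741 CPM in single LV and 1847 CPM in single RV libraries around medians of 21.0 and 32.6. The part of these cells in the differences of H19 and Igf2 was not tested.

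Against age, sham animals showed no member past the threshold. Between older shams and Sham-H, 0 of 9 members were called in LV, Spt or RV by edgeR, where 0.0171%, 0.103% and 0.0852% of all genes passed. An unadjusted p under 0.05 was reached by 1 member in LV, 4 in Spt and 4 in RV. DESeq2 called 0 members in LV, Mest and Peg3 in Spt and Mest in RV. The members' median log2 fold change was -0.10 in LV, 0.09 in Spt and 0.32 in RV, beside -0.008, -0.030 and -0.006 over all genes.

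Mest had the largest difference in RV. There it held 1.82 and 1.08 CPM in Sham-RF and 1.76, 3.12 and 2.29 CPM in Sham-LF. In RV of Sham-H it ran from 2.14 to 8.15 CPM with a median of 3.76. Older shams were lower with some overlap, by -1.17 ± 0.30 on the log2 scale (adjusted p 0.163). The 8.15 CPM came from Sham-H replicate 6, 1 of the 3 animals that ran against their labels in the check, and the next value was 4.66 CPM. With 1 animal left out the difference ran from -1.39 to -0.94. In Spt the difference was -0.84 ± 0.25 (adjusted p 0.108) and in LV -0.59 ± 0.26 (adjusted p 0.650), and in LV the older shams (2.92 to 4.10 CPM) and Sham-H (4.08 to 6.00 CPM) barely overlapped.

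Plagl1 and Peg3 had higher means in older shams, without passing. In Spt, Plagl1 stood at 0.770 and 1.07 CPM in Sham-RF and at 1.67, 1.06 and 1.35 CPM in Sham-LF, and in Sham-H it ran from 0.241 to 0.707 CPM with a median of 0.518. The groups did not overlap, and the log2 fold change was 1.09 ± 0.32 (adjusted p 0.107). Peg3 in Spt had 58.9 and 69.2 CPM in Sham-RF and 79.8, 81.5 and 71.5 CPM in Sham-LF, against 52.2 to 58.9 CPM in Sham-H. Older shams touched or exceeded the top of Sham-H, and the difference was 0.32 ± 0.08 (adjusted p 0.0597) in Spt and 0.32 ± 0.12 in RV (adjusted p 0.331), where the older shams (59.2 to 69.5 CPM) all lay above Sham-H (44.5 to 59.1 CPM).

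H19 and Igf2 did not pass either. H19 differed by -0.10 ± 0.37 in LV, -0.06 ± 0.34 in Spt and 0.74 ± 0.39 in RV (adjusted p 0.488 in RV), and Igf2 by -0.14 ± 0.20, 0.37 ± 0.15 and 0.35 ± 0.23, of which that in Spt had an unadjusted p under 0.05 (adjusted p 0.219). In LV both comparisons include Sham-H replicate 6, with 109 CPM of H19 (next 36.3) and 160 CPM of Igf2 (next 70.2). The negative signs in LV lean on this library. For H19 the Sham-H median of 30.0 CPM lay below the LV means of Sham-RF (41.3 CPM) and Sham-LF (31.9 CPM). The fit without the 3 animals with opposite labels is not reported here. Grb10 differed by -0.04 ± 0.09 in LV, -0.01 ± 0.09 in Spt and 0.00 ± 0.09 in RV. Cdkn1c in RV did not pass (24.3 ± 5.37 CPM, n = 5, against 16.7 ± 3.25, n = 7, adjusted p 0.446). Dlk1 and Meg3 had errors of 0.31 to 0.61 on the log2 scale, and changes of that size were not detectable at this depth. The age difference was then compared between chambers, with 0 of 9 and 0% of all genes called for RV or Spt against LV, 0 members at an unadjusted p under 0.05 and 0 by DESeq2.

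**Figure D3:**
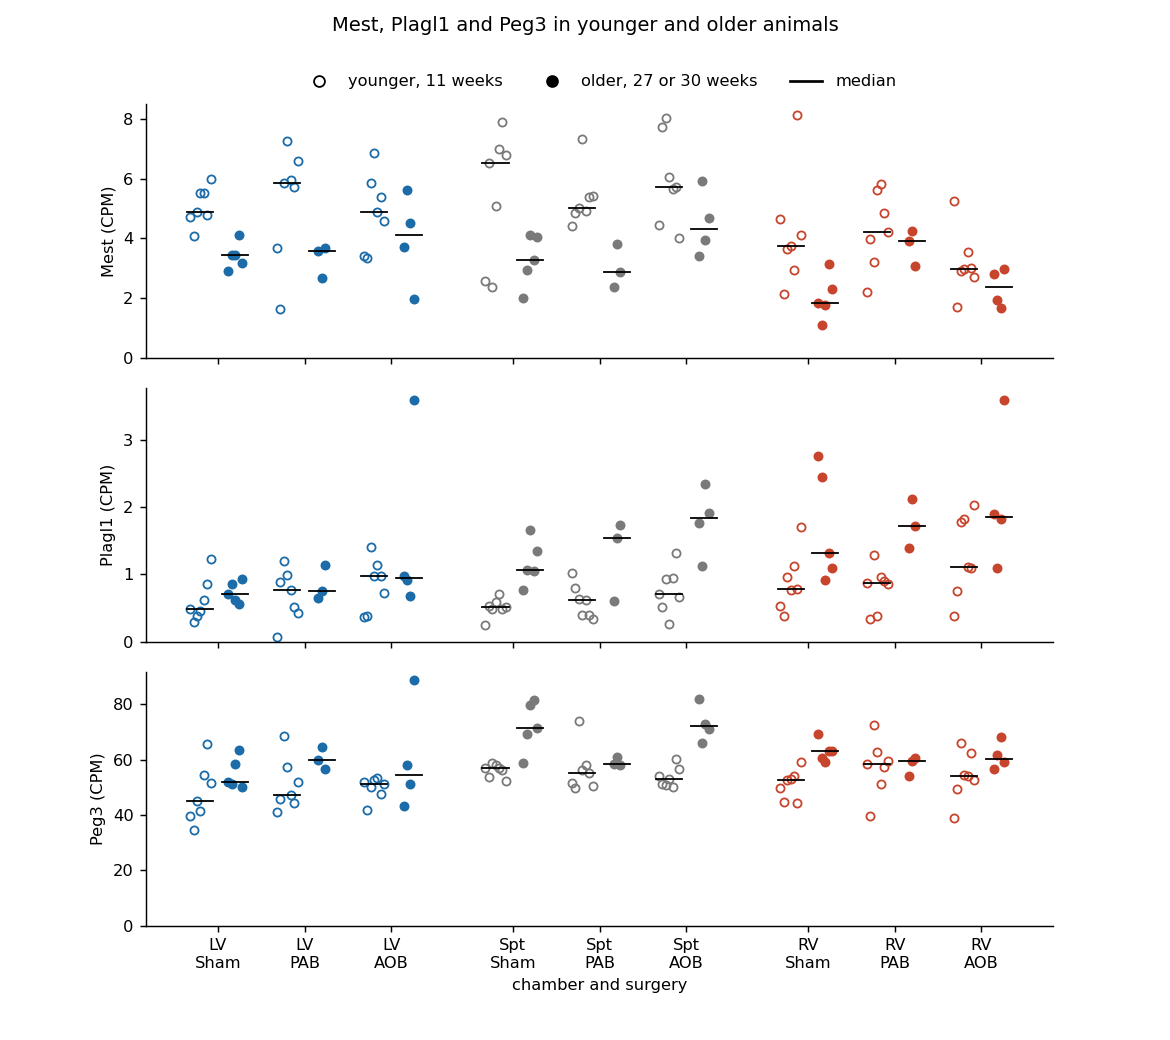
Mest, Plagl1 and Peg3 (top to bottom) in CPM for each library, by chamber and surgery, with younger animals as open and older animals as filled points and the group median as a line. The medians of Mest lie lower and those of Peg3 higher in the older animals, with Peg3 in RV upon PAB hardly apart (59.4 against 58.6 CPM). Plagl1 lies higher in Spt and RV. In LV its medians are no higher in PAB-F (0.749 against 0.762 CPM in PAB-H) or AOB-F (0.949 against 0.973 CPM in AOB-H).

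In banded animals the late stage was compared with the early one. Upon AOB in Spt, where 4.83% of all genes passed, 2 of 9 members were called. Peg3 had 81.9, 66.2, 73.0 and 71.1 CPM in AOB-F, and 50.2 to 60.2 CPM in AOB-H with a median of 53.1. The groups did not overlap, and the log2 fold change was 0.43 ± 0.08 (adjusted p 0.00370). Plagl1 had 1.76, 1.12, 2.34 and 1.91 CPM against 0.267 to 1.32 CPM with a median of 0.702, a change of 1.17 ± 0.29 (adjusted p 0.0216). Same-numbered Spt libraries of AOB-F and AOB-H deviated together weakly (correlations of 0.120 to 0.293), although they are from different animals. With the number as a block Plagl1 no longer passed (adjusted p 0.0528), nor did it without AOB-F replicate 1 or 3.

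H19 was lower in AOB-F than in AOB-H, by -1.14 ± 0.42 in LV (adjusted p 0.102) and -1.04 ± 0.38 in Spt (adjusted p 0.0954), neither past the threshold. DESeq2 called it in LV (adjusted p 0.0423) and the fit within series 3 in Spt (adjusted p 0.0463). In LV upon AOB 0 members passed against 6.53% of all genes, with 1 at an unadjusted p under 0.05, and in RV 0 against 0.290%, with 0 at an unadjusted p under 0.05 and 0 by DESeq2. Upon PAB 0 members passed by edgeR or DESeq2 in LV (0% of all genes), Spt (0.0172%) or RV (0%), and 1, 2 and 1 had an unadjusted p under 0.05. These were Mest in LV and Spt (-0.82 ± 0.29, adjusted p 0.540 in Spt) and Plagl1 in Spt (1.11 ± 0.35, adjusted p 0.361) and RV (1.12 ± 0.41, adjusted p 0.364).

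Shams and banded animals were then combined, a comparison chosen after seeing the data, of 12 older with 21 younger animals with sham, PAB and AOB weighted equally. In Spt 3 members were called, where 15.6% of all genes passed. Mest was 3.61 ± 1.06 CPM in older and 5.58 ± 1.58 in younger animals (-0.69 ± 0.15, adjusted p 0.00314). Plagl1 was 1.41 ± 0.506 and 0.624 ± 0.266 CPM (1.12 ± 0.19, adjusted p 0.000258), and Peg3 69.2 ± 8.88 and 55.5 ± 5.29 CPM (0.27 ± 0.05, adjusted p 0.000513). All 3 also passed within library series 3, and without any single animal.

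In RV, Plagl1 (0.91 ± 0.22, adjusted p 0.0149) and Mest (-0.59 ± 0.18, adjusted p 0.0430) were called against 6.78% of all genes, and in LV Mest alone (-0.52 ± 0.16, adjusted p 0.0313) against 11.8%. Within library series 2 neither passed in RV (adjusted p 0.0719 for Plagl1 and 0.0605 for Mest), and Mest passed in LV at -0.72 ± 0.14 (adjusted p 0.0135). Without the 3 animals Mest was -0.46 ± 0.15 in RV (adjusted p 0.0554) and -0.60 ± 0.13 in LV (adjusted p 0.00386). The LV call of Mest was lost without Sham-RF replicate 1, PAB-F replicate 1, PAB-F replicate 2 or AOB-F replicate 4, and neither gene passed in RV without PAB-F replicate 2. H19 in LV was -0.65 ± 0.24 (adjusted p 0.0766), and -0.34 ± 0.17 (adjusted p 0.182) without the 3 animals.

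Fibroblast markers moved with age in Spt as well. Their summed level (8 genes, Col1a2 with at most 3 counts) was 2032 to 2834 CPM in the older and 2774 to 4127 CPM in the younger animals, with medians of 2492 and 3249 CPM. In RV the medians were 3002 and 3273 CPM and in LV 3473 and 3556 CPM. Col3a1 was the one gene on any list called with age in shams in more than 1 chamber, at -0.99 ± 0.15 in Spt (adjusted p 0.000807) and -0.80 ± 0.16 in RV (adjusted p 0.0437). It encodes a fibrillar collagen and is itself one of the fibroblast markers. Across the 33 Spt libraries the fibroblast sum correlated with Peg3 at r = -0.65, with Plagl1 at -0.58 and with Mest at 0.51, and the mesothelial and epicardial sum with Peg3 at 0.69, Plagl1 at 0.60 and Mest at 0.16. Their part in the differences of these 3 genes was not tested.

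**Figure D4:**
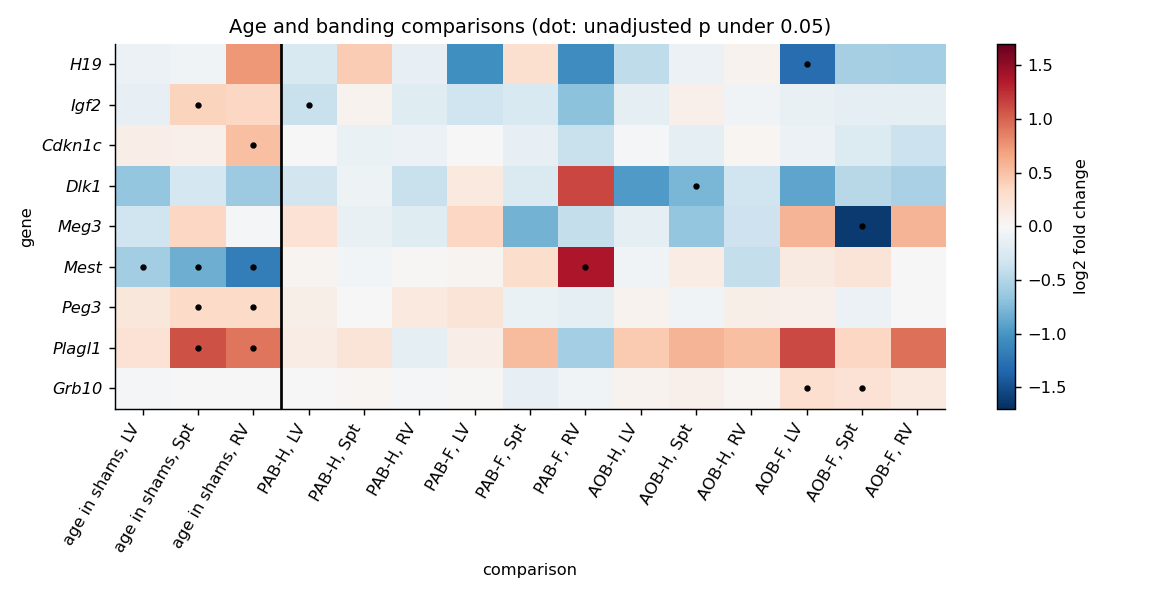
Log2 fold changes of the 9 genes by chamber for older against younger shams (left of the line) and for each banding group against its sham, with a dot where the unadjusted p is under 0.05. Mest is negative and Plagl1 and Peg3 positive across the age columns. Neither the age columns nor the banding columns hold a called member. The cell of Dlk1 upon PAB-F in RV is against a group at the detection floor.

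Other imprinted genes also went both ways with age, as the members did, and those named here were chosen after their values were seen. In shams, of 12, 10 and 10 further paternally expressed genes tested in LV, Spt and RV, 0 were called, and of 17 maternally expressed ones 1 was, Gnas in Spt, which encodes a G protein subunit (0.37 ± 0.07, adjusted p 0.0421). Over shams and banded animals in Spt, Impact (0.41 ± 0.08, adjusted p 0.00150), Zrsr1 and Inpp5f of the paternal list were higher in older animals and Ndn (-0.60 ± 0.12, adjusted p 0.00155) and Peg12 lower, so 3 of 10 rose and 2 fell. Of the maternal list, 1 of 17 rose there (Gnas) and 2 fell, near the 15.6% of all genes called in Spt. Of 9 factors that maintain imprints, 1 was called in Spt and 1 in RV, both lower (Dnmt3a and Trim28), also near the shares of all genes (15.6% and 6.78%). In the IGF system 0 of 17, 16 and 17 genes were called with age in shams, and Igf1 in RV (0.62 ± 0.21, adjusted p 0.299 in shams) passed over shams and banded animals at 0.48 ± 0.13 (adjusted p 0.0278).

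Banding itself moved no member past the threshold. In the 12 comparisons of a banding group with its sham, 0 of 9 members were called by edgeR, by DESeq2 or under any other alternative that tested them. The share of all genes called was 0.837% in LV and 0.232% in Spt of AOB-F and 0% in the other 10. An unadjusted p under 0.05 was reached in 7 of the 108 tests. Igf2 upon PAB-H in LV (-0.38 ± 0.18, adjusted p 0.957), Dlk1 upon AOB-H in Spt (-0.77 ± 0.29, adjusted p 0.240), Meg3 upon AOB-F in Spt (-1.63 ± 0.55, adjusted p 0.172) and Grb10 upon AOB-F in LV (0.29 ± 0.12, adjusted p 0.273) and Spt (0.24 ± 0.12, adjusted p 0.394) were 5 of these. The difference of Igf2 ran from -0.46 to -0.09 with 1 animal left out. Its sham group holds the LV library of Sham-H replicate 6, at 160 CPM beside a next value of 70.2 CPM.

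The other 2 had groups that did not overlap. How many of all genes separated in this way was not counted, here or in the comparisons above. H19 in LV held 9.91, 17.3, 17.0 and 7.61 CPM in AOB-F against 24.9, 35.3 and 35.6 CPM in Sham-LF. The failing LV thus lay below all its shams, at -1.29 ± 0.49 (adjusted p 0.217), and at -1.29 ± 0.33 (adjusted p 0.0566) without the 3 animals, none of which is in either group. Markers of other cells differed between the same libraries. The cardiomyocyte sum was 32397 to 47170 CPM in AOB-F and 48519 to 61813 CPM in Sham-LF, the fibroblast sum 3370.4 to 4441 and 2939 to 3178 CPM, both without overlap, and the myeloid sum had medians of 556 and 354 CPM. Their part in the difference of H19 was not tested. Mest in RV held 3.90, 4.25 and 3.07 CPM in PAB-F against 1.82 and 1.08 CPM in Sham-RF. The failing RV lay above both shams (1.37 ± 0.47, adjusted p 0.524), beside a mean of 3.87 CPM in RV of the younger animals. Mest in PAB-F overlapped RV of Sham-LF, which held up to 3.12 CPM. H19, Igf2 and Plagl1 had lower means in RV of PAB-F (n = 3) than in RV of Sham-RF (n = 2), and Dlk1 had a higher one. None of these had an unadjusted p under 0.05. The change of banding with stage, tested as an interaction, called 0 members and 0% of all genes in all chambers by edgeR and DESeq2, with 1 member at an unadjusted p under 0.05, Mest upon PAB in RV (1.35 ± 0.53, adjusted p 1.00).

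The genes with the most similar pattern were listed for each member by Pearson's r of log2 CPM over the 99 libraries, which share animals, chambers and library series. For H19 these were Prr15 (0.83), Sall1 (0.83), Plvap (0.82), Nsg1 (0.80) and Igf2 (0.77). For Igf2 they were H19, Tm4sf1 (0.75), Vwf (0.74), Foxc1 (0.74) and Cgnl1 (0.73), of which Vwf is an endothelial marker. H19 and Igf2 kept r = 0.72 after the mean of each chamber and library series was subtracted, whereas the neighbours Dlk1 and Meg3 had r = -0.00.

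For Mest the list was Col4a1 (0.83), Top2a (0.79), Prc1 (0.77), Dok4 (0.75) and Tpx2 (0.75), a collagen of the basement membrane and genes of mitosis among them. Peg3 was closest to Prpf4b (0.80), Ppp1r12a (0.79), Tnrc6a (0.79), Zfp638 (0.77) and Baz1b (0.75), and Plagl1 had among its most similar genes Ddhd1 (0.70), Myof (0.69), Impact (0.69) and Idua (0.68). Peg3 and Plagl1 correlated with each other at 0.58. Cdkn1c was closest to Camk2n1 (0.83), Rnd2 (0.81), Prrt1 (0.80), Cytl1 (0.79) and Gsta1 (0.79), and Grb10 to Rai14 (0.74), Arhgap11a (0.74), Emp1 (0.74), Atad2 (0.73) and Fam163a (0.72). The sparse genes Dlk1 (Hes2, 0.56, then Adora2a, Fam43a, Gimap4 and Nid2) and Meg3 (Safb2, 0.59, then Prpf38b, Pnisr, Zufsp and Hnrnph1) had weaker likenesses, which at these counts are no finding.

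The order of mean levels over the 21 groups was as follows. H19 was highest in RV of Sham-RF (125 ± 17.8 CPM, n = 2) and RV of Sham-LF (104 ± 28.3 CPM, n = 3), and its 7 highest groups were the 7 RV groups. It was lowest in Spt and LV of AOB-F (11.8 ± 4.22 and 12.9 ± 4.92 CPM, n = 4). Igf2 was highest in RV of Sham-RF (155 ± 0.0578 CPM, n = 2) and lowest in LV of AOB-F (58.2 ± 6.59 CPM, n = 4). Mest was highest in Spt of AOB-H (5.95 ± 1.51 CPM, n = 7) and lowest in RV of Sham-RF (1.45 ± 0.523 CPM, n = 2). Peg3 was highest in Spt of Sham-LF (77.6 ± 5.37 CPM, n = 3), Plagl1 in RV of Sham-RF (2.61 ± 0.219 CPM, n = 2) and Grb10 in Spt of AOB-F (80.3 ± 7.30 CPM, n = 4). Cdkn1c was highest in RV of Sham-LF (26.2 ± 6.65 CPM, n = 3), Dlk1 in Spt of Sham-H (0.643 ± 0.150 CPM, n = 7) and Meg3 in Spt of Sham-LF (0.857 ± 0.462 CPM, n = 3). Of the 20 steps between neighbours in each order, 1 exceeded the larger SD of both groups for Igf2, Mest, Peg3 and Grb10 and none did for H19, Plagl1, Cdkn1c, Dlk1 and Meg3, so that neighbouring groups nearly always differed by less than their spread.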

How the data were processed

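Polyadenylated RNA of LV, Spt and RV from 33 male F1 rats was sequenced by the authors in 99 libraries. Per the labels and the study's methods, the authors trimmed reads with Trim Galore, aligned them with STAR and counted them with featureCounts. The counting strand is not given in the sources used here. The deposited table holds raw counts per gene, normalized counts (a signal scaled by the authors with DESeq2 size factors) and FPKM, all made by the authors. Tests here used the deposited counts, FPKM served only to compare genes with each other, and the deposited normalized signal served only as a check. Samples were grouped by their labels. The tissue field of some RV libraries names another chamber, and the description of the RV library of Sham-LF replicate 1 conflicts with its title. Title and column name were followed there. Spt libraries of AOB-F replicates 1 and 2 appear exchanged in a sheet of the study, which bears on the replicate block but not on the group. No value column was left without a sample.

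Counts were scaled by TMM, filtered with filterByExpr (edgeR 4.0.16, R 4.3.3) and fitted with edgeR's quasi-likelihood test for each chamber over its 33 libraries and 7 conditions. Chambers were compared in 1 fit of 99 libraries that treats the libraries of an animal as separate, with the animal as a block as an alternative. Older shams are Sham-RF and Sham-LF weighted equally. P-values were adjusted by Benjamini-Hochberg over all genes at a threshold of 0.05, the SE is that implied by the F statistic, and tests are two-sided. CPM in the likeness of genes used a prior count of 2. DESeq2 1.42.0, library series (runs of library numbers in the labels) as a covariate or a stratum, the replicate number as a block, all 99 libraries in 1 fit and leaving out animals were alternatives. The fits were tested on simulated counts.

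RV and LV of 1 animal deviated together (median correlation 0.445, over 0.1 in 27 of 33 animals). Spt did so less, with medians of 0.159 with LV (over 0.1 in 18 of 33) and 0.192 with RV (22 of 33). Libraries with the same replicate number in different conditions are from different animals. All pairs were over 0.1 only for Spt of AOB-F and AOB-H (4 pairs, 0.120 to 0.293) and of Sham-RF and Sham-H (2 pairs, 0.235 and 0.258). Totals of 12057180 to 24197244 counts per library set the precision, and floors of 3 counts cover counting error only. The members and all gene lists were chosen with earlier results of these data known. By rule, all 9 members, any listed gene called with age in shams in more than 1 chamber, 6 genes of the IGF system and the 5 most similar genes of each member were named. For Plagl1, 1 of these similar genes is not reported here.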

Additional observations from a re-analysis of the deposited data

Results flagged for a closer look

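In 108 groups of 4 to 7 libraries, 10 held a highest sample whose gap to the nearest other was large beside the group's range (Dixon's 95% limit), where chance flags about 1 in 20 groups. No difference between groups met the rule for opposite or interacting effects.

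In LV of Sham-H, replicate 6 stood apart for H19 (109 CPM, next 36.3) and Igf2 (160 CPM, next 70.2), and in RV of Sham-H the same animal stood apart for Mest (8.15 CPM, next 4.66). It is 1 of the 3 animals whose libraries labelled LV and RV differed against their labels in 50 other genes.

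In AOB-F, replicate 4 stood apart for Plagl1 in LV (3.60 CPM, next 0.984), for Meg3 in LV (1.43 CPM, next 0.227) and for Meg3 in Spt (0.531 CPM, next 0.201). It is 1 of the 3 animals with a slightly negative check of the labels.

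The remaining 4 were single Spt libraries. PAB-H replicate 4 stood apart for Dlk1 (1.08 CPM, next 0.670), PAB-H replicate 7 for Mest (7.31 CPM, next 5.41), PAB-H replicate 3 for Peg3 (73.9 CPM, next 57.9) and Sham-H replicate 5 for Cdkn1c (27.6 CPM, next 15.9).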

How the results depend on the processing

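No member value changed sign while called under any alternative. Under alternatives other than leaving out 1 animal, 493 member values kept their side of the threshold, 27 newly passed and 13 no longer passed. With 1 animal left out these were 846, 11 and 44.

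Counts of members called that moved by more than 1.5 times were these. DESeq2 called 1 for late against early AOB in LV (0 before), 2 for older against younger animals in LV (1 before), and 2 in Spt and 1 in RV for age in shams (0 before). Fitting all 99 libraries together called 2 for older against younger animals in LV, 1 for late against early AOB in Spt (2 before) and 1 for age in shams in RV. Age in Spt against Sham-LF alone called 2. With the replicate number as a block, 2 were called for older against younger animals in LV, Peg3 and Plagl1, while Mest was lost (-0.30 ± 0.19, adjusted p 0.222), and 1 for late against early AOB in Spt. The same number in another condition is another animal, so the LV count rests on numbers that are only names. With library series as a covariate, 1 was called for older against younger animals in RV (2 before), 4 for RV minus LV in older shams (2 before) and 0 for Spt minus LV over all conditions (3 before), and within series 2 older against younger animals in RV gave 0. Without the 3 animals, 2 were called for older against younger animals in LV, 1 in RV, 2 for RV minus LV in Sham-H (0 before) and 4 in older shams.

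Smaller moves were 3 within series 3 for late against early AOB in Spt (2 before, H19 added), and, with the animal as a block, 3 for RV minus LV in older shams (2 before), 7 for RV minus LV (5 before) and 4 for Spt minus LV (3 before) over all conditions. RV minus LV over all conditions also gave 7 with series as a covariate or without the 3 animals, and Spt minus RV 5 with the covariate (7 before).

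With 1 animal left out, members called ranged from 0 to 2 for older against younger animals in LV and in RV, 0 to 3 for age in Spt, 1 to 2 for late against early AOB in Spt, 0 to 2 for RV minus LV in older shams, 0 to 1 for Spt minus RV in Sham-H and in older shams, 4 to 7 for RV minus LV, 1 to 3 for Spt minus LV and 6 to 7 for Spt minus RV over all conditions. In the fit of 99 libraries only the 12 sham animals were left out in turn.

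Over all genes, calls moved more: with age in shams from 2 to between 0 and 961 in LV, from 12 to between 0 and 201 in Spt and from 10 to between 0 and 59 in RV, and for RV minus LV in older shams from 719 to between 579 and 2090. In Sham-H that difference moved from 0 to between 0 and 149. Older against younger animals moved from 1380 to between 1126 and 3761 in LV and from 795 to between 162 and 2857 in RV. Late against early AOB in Spt moved from 561 to between 189 and 918. The share of all genes under each single alternative is not given, so a rise in members called cannot be read as particular to them. When the mean of each chamber and library series was subtracted, at least 4 of the 5 most similar genes stayed for 3 members and fewer for 6. Few older animals and the low counts of Dlk1, Meg3 and Plagl1 limit all comparisons.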
